A study of Mus musculus with 30 samples.

Results

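The 53 genes described here lie next to each other on mouse chromosome 2, from Tgm5 to Ap4e1, and were taken by symbol from a list, out of 55573 genes in the deposited tables. They span chr2:121046111-127067909 in GRCm38 (6.022 Mb), a span in which the tables hold 111 genes, 70 of them protein-coding. The list holds 52 protein-coding genes, with 27 genes on the plus strand and 26 on the minus strand. The last of them ends 1.631 Mb before Mertk and the first starts 1.228 Mb after Tyro3. RNA was sequenced from the retinal pigment epithelium (RPE) of mice at P25 and from bone marrow-derived macrophages (BMDMs) grown for 7 days in medium conditioned by L929 cells. There were 6 libraries of RPE each from B6 wild-type (WT) and Mertk-/-V1 mice, 3 each from Mertk-/-V2 and Mertk-/-V3 mice, and 3 libraries of BMDMs from each of the 4 genotypes, called biological replicates in the labels. Mertk-/-V1 mice carry a Mertk allele in which exon 17 was replaced by a neomycin cassette in 129P2 embryonic stem cells. They had been backcrossed to B6 for at least 10 generations, and microsatellite typing by the study placed a 129P2 segment between D2Mit206 and D2Mit168 on their chromosome 2. Mertk-/-V2 mice lack exon 18, excised in the germline by a tamoxifen-dependent Cre from a floxed allele made in C57BL/6NJ embryos. Mertk-/-V3 mice lack exons 3 and 4, removed with CRISPR/Cas9 in C57BL/6NJ eggs. Chromosome 2 was typed as B6 in both of these lines, and the labels give C57BL/6J as the strain of every sample, Mertk-/-V1 included. The tables hold gene counts and no allele calls, so which of the 53 genes were of 129P2 origin was not determined here.

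When a gene is targeted in stem cells of one strain and the mice are then crossed to another, the DNA on either side of the targeted locus stays with the selected allele until it is removed by recombination. Genes on such a passenger segment keep the sequence of the donor strain, and variants in their promoters, enhancers or transcripts can change their own RNA level in cis, in some cell types and not in others. Mertk encodes a receptor tyrosine kinase by which RPE cells and macrophages engulf dying cells and shed photoreceptor tips, and Tyro3 encodes a related receptor. The 53 genes have other roles, among them creatine synthesis, nucleoside uptake, translation, vesicle traffic and hydrogen peroxide production.

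Values are normalized counts, which are the gene counts of the authors after division by one size factor per library, and log2 fold changes (log2FC, ± SE) are on the log2(value + 1) scale. A gene was tested where its mean over the libraries of a tissue was at least 10, and passed where the adjusted p of limma was under 0.05. Reads on genes came to 14137666 to 34124049 per library in RPE and 16629659 to 25653814 in BMDMs. Mertk itself was lower in Mertk-/-V1 than in WT in RPE (log2FC -1.46 ± 0.20, adjusted p = 0.00267) and in BMDMs (log2FC -1.61 ± 0.06, adjusted p = 3.27e-09). In Mertk-/-V2 BMDMs the Mertk count was higher than in WT, at 3589, 3532 and 3579 against 2414, 2649 and 2881 (log2FC 0.43 ± 0.06, adjusted p = 0.00129). It did not pass in Mertk-/-V2 RPE (log2FC 0.39 ± 0.25, adjusted p = 0.954), so the count over the whole gene did not check the exon deletion of this line. In Mertk-/-V3, Mertk was lower in RPE (log2FC -2.01 ± 0.25, adjusted p = 0.00222) and in BMDMs (log2FC -1.94 ± 0.06, adjusted p = 2.54e-10). Tyro3 was lower in Mertk-/-V1 RPE (log2FC -1.31 ± 0.17, adjusted p = 0.00131). The 6 RPE marker genes took 0.774 to 2.18% of the reads in the 6 Mertk-/-V1 RPE libraries and 1.89 to 2.97% in the 6 WT libraries, none of the 6 passed the test, and 12 rod photoreceptor genes took 0.120 to 3.56% over the WT and Mertk-/-V1 RPE libraries together. The 8 macrophage markers took 1.60 to 1.77% of the reads in BMDMs. In RPE Mertk-/-V1, replicates 5 and 6 stood apart from replicates 1 to 3, with a chi-square per gene between their counts of 248.9 to 354 against 32.4 to 58.1 among replicates 1 to 4. In WT RPE, replicates 5 and 6 also stood apart from replicates 1 to 3, at 62.93 to 167.3 against 16.95 to 37.25 among replicates 1 to 3. With replicates 1 to 3 of WT and Mertk-/-V1 alone 2 members passed, Gatm and Eif3j1 (background 0.123%). In these bulk samples, fewer cells of a type and less RNA per cell cannot be told apart.

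5 promoters are shown because they belong to the members with the largest or most regular differences described below: 4 of them lie within one stretch of neighbouring genes, and the fifth belongs to Eif3j1, whose reads have to be read together with those of a near-identical copy. Each runs from 250 bases before to 50 bases after the RefSeq start (GRCm38.p6, 51 of the 53 genes matched), 5′ to 3′ on the strand of the gene. Capitals mark every match, on either strand, to the motifs searched: CCAAT (in 37.4% of 32851 RefSeq promoter windows of the same length), GGGCGG (35.7%), TATAA (24.9%), GAGGAAG (13.6%), CACGTG (7.15%) and TGACTCA (5.2%). The windows lie at chr2:122637637-122637936 on the plus strand (AA467197), chr2:122611228-122611527 on the minus strand (Gatm), chr2:122426185-122426484 on the plus strand (Slc28a2), chr2:122484691-122484990 on the plus strand (Gm14085, which RefSeq names Slc28a2b) and chr2:122028330-122028629 on the plus strand (Eif3j1).
AA467197: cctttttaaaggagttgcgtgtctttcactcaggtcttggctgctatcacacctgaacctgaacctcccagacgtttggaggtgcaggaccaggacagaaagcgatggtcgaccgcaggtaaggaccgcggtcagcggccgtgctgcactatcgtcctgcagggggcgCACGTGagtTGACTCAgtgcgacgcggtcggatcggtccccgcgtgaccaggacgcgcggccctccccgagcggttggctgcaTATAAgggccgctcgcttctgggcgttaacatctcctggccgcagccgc
Gatm: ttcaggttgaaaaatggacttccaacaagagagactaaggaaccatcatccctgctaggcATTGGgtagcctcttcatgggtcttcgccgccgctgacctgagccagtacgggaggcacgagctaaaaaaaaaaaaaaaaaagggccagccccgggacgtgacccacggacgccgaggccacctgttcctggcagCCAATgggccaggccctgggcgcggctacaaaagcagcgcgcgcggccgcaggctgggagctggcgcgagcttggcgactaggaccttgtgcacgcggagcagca
Slc28a2: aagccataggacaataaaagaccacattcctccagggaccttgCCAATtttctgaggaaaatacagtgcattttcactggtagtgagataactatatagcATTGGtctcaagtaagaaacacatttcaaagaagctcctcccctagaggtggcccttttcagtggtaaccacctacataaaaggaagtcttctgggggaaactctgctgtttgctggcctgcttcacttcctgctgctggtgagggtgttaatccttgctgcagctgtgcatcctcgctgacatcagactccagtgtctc
Gm14085: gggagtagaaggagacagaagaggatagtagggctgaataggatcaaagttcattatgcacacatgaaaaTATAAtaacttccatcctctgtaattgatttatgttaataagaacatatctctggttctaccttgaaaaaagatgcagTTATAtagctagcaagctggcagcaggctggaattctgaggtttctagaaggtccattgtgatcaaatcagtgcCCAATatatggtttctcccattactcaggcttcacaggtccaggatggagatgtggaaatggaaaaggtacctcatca
Eif3j1: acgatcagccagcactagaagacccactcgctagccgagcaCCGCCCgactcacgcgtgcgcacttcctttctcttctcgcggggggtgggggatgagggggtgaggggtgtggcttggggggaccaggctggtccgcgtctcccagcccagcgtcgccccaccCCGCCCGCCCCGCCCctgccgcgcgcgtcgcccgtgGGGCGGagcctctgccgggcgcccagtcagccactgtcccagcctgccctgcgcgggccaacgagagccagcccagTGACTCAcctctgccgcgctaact
The AA467197 window holds CACGTG at -82 and TGACTCA at -73 from the start, the Gatm window holds CCAAT at -55, and the Gm14085 window holds CCAAT at -28. The Slc28a2 window holds CCAAT at -207 and, on the other strand, at -150, and the Eif3j1 window holds GGGCGG 5 times. The letters are those of the reference, a match is no proof of a site, and the 129P2 sequence of these windows was not used here. AA467197 is also the host gene of a microRNA in its last exon, mmu-miR-147-5p at chr2:122640814-122640837 on the plus strand, shown with its seed (bases 2 to 8) in capitals.
mmu-miR-147-5p: uGGAAACAuuucugcacaaacuag
Its level was not measured in these libraries of polyadenylated RNA.

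In BMDMs, 15 of the 36 members tested passed between Mertk-/-V1 and WT, 9 higher and 6 lower in Mertk-/-V1, where 7.07% of all genes tested passed (3.92% higher and 3.15% lower). In RPE, 4 of the 45 members tested passed, 1 higher and 3 lower, where 0.388% of all genes did (0.287% higher and 0.101% lower). The share among genes outside chromosome 2 was 6.68% in BMDMs and 0.333% in RPE. Among the other genes from Thbs1 to Plcb1, which lie on both sides of the 53 and between them, 35 of 151 passed in BMDMs (23.2%) and 10 of 185 in RPE (5.41%). These genes include Mertk, the targeted gene, which passed in both tissues, and Tyro3, which passed in RPE. Thbs1 and Plcb1, the ends of the stretch, were named by the study as differentially expressed in BMDMs. The median size of the log2FC was 0.26 over the members and 0.12 over all genes in BMDMs, and 0.19 and 0.14 in RPE. With the fold threshold of the study added, a change of at least 2.38-fold in either direction, 3 members passed in BMDMs (Gm14085, Gatm and AA467197, with 0.425% of all genes) and 2 in RPE (Gatm and AA467197, with 0.149%). In BMDMs, Gm14085 was above the filter only through its Mertk-/-V1 libraries.

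**Figure D1:**
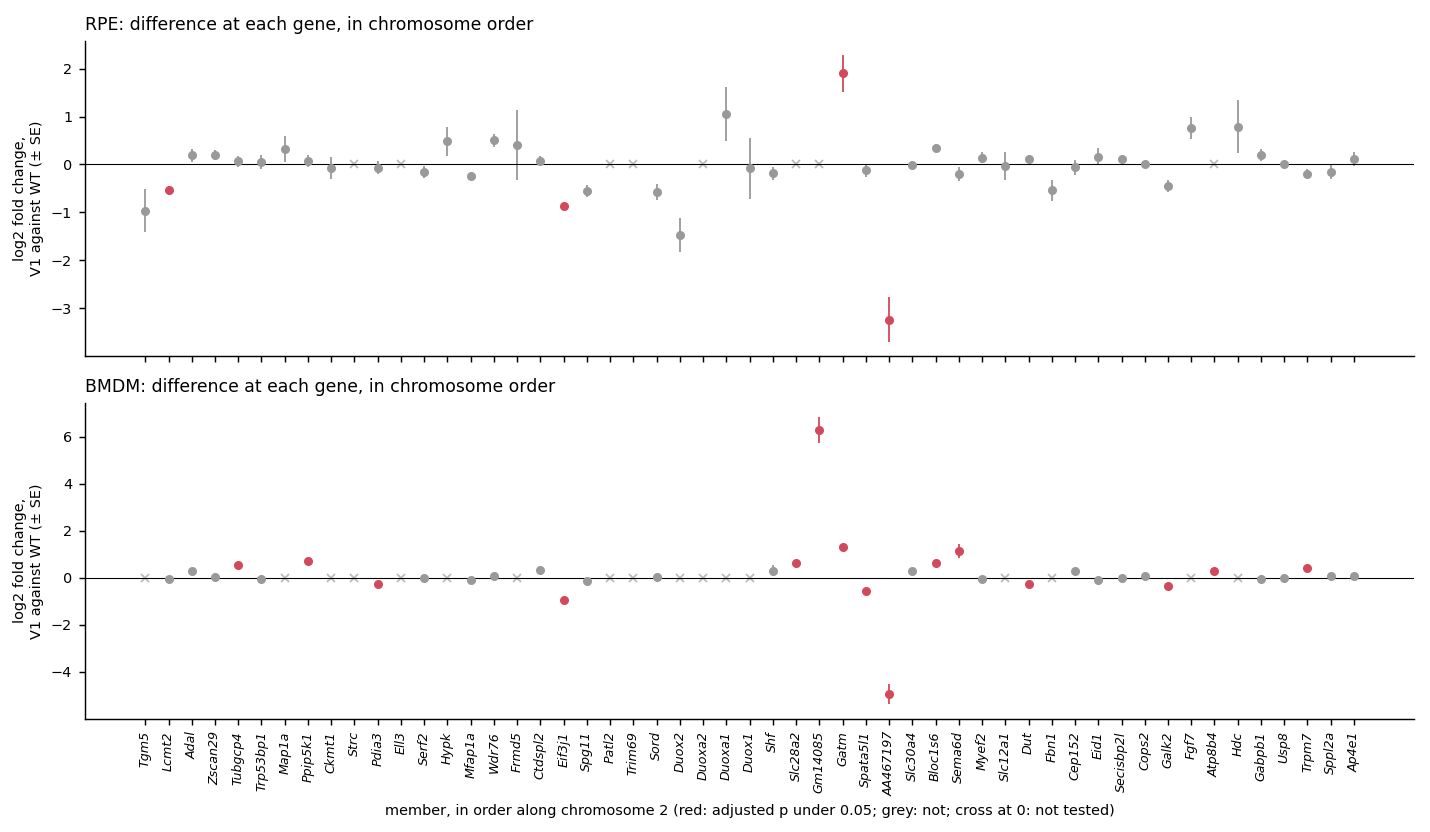
The log2 fold change between Mertk-/-V1 and WT (y axis, ± SE, on the log2(value + 1) scale) is drawn for the 53 genes in chromosome order (x axis), with RPE above and BMDMs below. Red points passed the test and crosses at 0 mark genes under the filter: the 5 neighbours from Slc28a2 to AA467197 are all red in BMDMs, and the sizes for Gm14085 and AA467197 there depend on the pseudocount.

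The other lines gave fewer calls. Mertk-/-V2 against WT gave 2 members in BMDMs, Pdia3 and Wdr76, both lower, where 4.61% of all genes passed and 2.36% were lower. It gave 0 of 45 in RPE by limma (background 0.069%), with 1 member at an unadjusted p under 0.05 (5.47% of all genes) and 0 calls by edgeR and by DESeq2. Mertk-/-V3 against WT gave 0 of 36 in BMDMs by limma (background 1.17%), with 7 at an unadjusted p under 0.05 (15.9% of all genes), 0 calls by edgeR and 1 by DESeq2. In RPE it gave 0 of 45 by limma (background 0.069%), with 3 at an unadjusted p under 0.05 (11.1% of all genes) and 0 calls by both other tools. Mertk-/-V1 was also set against the mean of both other knockouts, which gave 12 members in BMDMs, 8 higher and 4 lower (background 0.991%, or 0.663% higher and 0.328% lower). In RPE it gave 4, Bloc1s6 higher and Eif3j1, AA467197 and Lcmt2 lower (background 0.207%, or 0.112% higher and 0.0956% lower). The 3 comparisons with WT share their WT libraries and the last one shares the Mertk-/-V1 libraries with the first, so their calls are not independent of each other. Against WT, all 3 Mertk-/-V1 libraries of BMDMs lay above all 3 WT libraries for 12 members and below them for 6, of the 36 tested, where 15.4% of all genes lay above and 15.4% below in this way, so the count below was near that of all genes.

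Gatm (chr2:122594467-122611303, minus strand) encodes glycine amidinotransferase, the enzyme of the first step of creatine synthesis. In BMDMs its normalized counts were 2769, 2794 and 3099.6 in WT, 7510.2, 6983 and 7202 in Mertk-/-V1, 2931, 2829 and 2182 in Mertk-/-V2 and 2799.6, 2991 and 2929 in Mertk-/-V3. The Mertk-/-V1 values were all above those of the other 9 libraries, a ratio of means of 2.50 to WT (log2FC 1.33 ± 0.09, adjusted p = 1.41e-06; against the mean of the other knockouts 1.39, adjusted p = 1.94e-07). In RPE, the 6 WT libraries had a lowest of 37.5, a median of 46.0 and a highest of 144, and the 6 Mertk-/-V1 libraries had a lowest of 131, a median of 238 and a highest of 296. Gatm was higher in Mertk-/-V1 RPE (log2FC 1.90 ± 0.38, adjusted p = 0.0349), though the ranges touched. Mertk-/-V2 RPE had 214, 72.1 and 80.0 and Mertk-/-V3 RPE had 114, 213 and 60.2, values that reached from the WT range into the Mertk-/-V1 range, and Mertk-/-V1 did not pass against their mean (log2FC 0.99 ± 0.38, adjusted p = 0.44). The RPE call rested on single libraries: it passed only without WT replicate 4, WT replicate 6 or Mertk-/-V1 replicate 3 among the 12 fits that each left out 1 library, in which its adjusted p ranged from 0.0109 to 0.105. Within replicates 1 to 3 the means were 39.5 in WT and 202 in Mertk-/-V1, and within replicates 4 to 6 they were 93.4 and 252.

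Galk2, a kinase of N-acetylgalactosamine and galactose, fell in Mertk-/-V1 BMDMs, with 1703, 1627 and 1670.3 against 2089, 2113 and 2209.7 in WT (log2FC -0.36 ± 0.05, adjusted p = 0.00146). Mertk-/-V2 had 2080.4, 2082 and 1821 and Mertk-/-V3 had 2043, 2099 and 2126, all above the Mertk-/-V1 libraries, and Mertk-/-V1 passed against their mean too (-0.29, adjusted p = 0.00411). In RPE its log2FC was -0.44 with an adjusted p of 0.215, and the ranges overlapped. Sord, the sorbitol dehydrogenase of the polyol pathway, had a log2FC of -0.58 in RPE (adjusted p = 0.237) and 0.02 in BMDMs, and its transcript is 99.3% identical over 1070 bases to Gm6652. Ckmt1, the mitochondrial creatine kinase of many epithelia, did not pass in RPE (log2FC -0.08 ± 0.23, adjusted p = 0.959) and was at 0 reads in 11 of 12 BMDM libraries, and Hdc, the histidine decarboxylase that makes histamine, was tested in RPE alone (log2FC 0.79 ± 0.55, adjusted p = 0.834). Of the creatine genes that lie elsewhere, Ckb, the brain-type creatine kinase, was lower in Mertk-/-V1 BMDMs (log2FC -0.23 ± 0.04, adjusted p = 0.00453) and in Mertk-/-V2 BMDMs (log2FC -0.15 ± 0.04, adjusted p = 0.0492), and Mertk-/-V1 did not pass against the mean of the other knockouts (log2FC -0.14 ± 0.03, adjusted p = 0.0699). Gamt, which completes creatine synthesis, and Slc6a8, which imports creatine, did not pass in either tissue.

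Slc28a2 (chr2:122426477-122461137, plus strand) encodes a sodium-coupled transporter that takes up purine nucleosides, and Gm14085 (chr2:122484941-122528040, plus strand) is its neighbour and paralog, 95.9% identical over 3750 transcript bases. In BMDMs, Slc28a2 had 508, 566 and 641 in WT, 851, 906 and 865 in Mertk-/-V1, 589.5, 549.7 and 491 in Mertk-/-V2 and 587, 565 and 705 in Mertk-/-V3. It was higher in Mertk-/-V1 (log2FC 0.62 ± 0.10, adjusted p = 0.00291; against the other knockouts 0.60, adjusted p = 0.00181). Gm14085 had 0, 0.815 and 3.91 in WT, 1.21, 2.02 and 0.95 in Mertk-/-V2 and 0, 1.07 and 0.803 in Mertk-/-V3, which is 5, 4 and 2 reads over the 3 libraries of each group. The 3 Mertk-/-V1 libraries had 171, 156 and 151, or 436 reads together. The level was 110 times that of WT, with a 95% exact interval of 46.9 to 341 that covers counting error only (limma adjusted p = 1.56e-05). This was the largest ratio among the 53 genes, and Gm14085 was also higher in RPE by count, with 17 reads over the 6 Mertk-/-V1 libraries and 0 reads in all 12 others. The ratio to WT is 4.54 if 3 reads are taken over the 6 WT libraries, the limit that a count of 0 allows. This ratio makes no allowance for counting error in the 17 reads. Reads of the pair could be exchanged where the transcripts agree, and how the counting treated them is not given in the sources used here. Slc28a2 in RPE was under the filter, at 2.41 to 28.1.

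Dut, the dUTPase that keeps uracil out of DNA, fell slightly in Mertk-/-V1 BMDMs, with 722, 657 and 666 against 819.6, 813 and 791 in WT (log2FC -0.25 ± 0.07, adjusted p = 0.0445). Mertk-/-V2 had 666, 729 and 803 and Mertk-/-V3 had 677, 722 and 719.9, the latter all below WT without passing (log2FC -0.19 ± 0.07, adjusted p = 0.178), and Mertk-/-V1 did not pass against their mean (log2FC -0.08 ± 0.06, adjusted p = 0.648). That call was lost without any 1 of the 6 libraries (adjusted p from 0.0547 to 0.155). Adal, which acts on N6-methylated adenosine monophosphate, did not pass in BMDMs (log2FC 0.28 ± 0.15, adjusted p = 0.27) or RPE (log2FC 0.19 ± 0.13, adjusted p = 0.833). Among other nucleoside transporters, Slc29a3, a transporter of lysosomes and mitochondria, was higher in Mertk-/-V1 BMDMs against WT (log2FC 0.21 ± 0.06, adjusted p = 0.0409) but not against the other knockouts (adjusted p = 0.291), and Slc29a1 and Slc29a2 of the cell surface did not pass in either tissue.

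AA467197 (chr2:122636986-122641191, plus strand) encodes a small mitochondrial protein related to the respiratory chain subunit NDUFA4. In WT BMDMs it had 46.0, 49.7 and 40.1 (56, 61 and 41 reads), and in Mertk-/-V1 it had 2.35, 0 and 0 (2, 0 and 0 reads). Mertk-/-V2 had 30.3, 59.5 and 64.6 and Mertk-/-V3 had 24.0, 26.7 and 24.1, so the Mertk-/-V1 libraries lay below the other 9. The WT level was 62.5 times the Mertk-/-V1 level, with a 95% exact interval from counting alone of 17.0 to 520 (limma adjusted p = 1.59e-05, and 7.87e-06 against the other knockouts). In RPE the 6 WT libraries had a lowest of 113, a median of 188 and a highest of 340.4 and the 6 Mertk-/-V1 libraries had a lowest of 6.07, a median of 16.9 and a highest of 59.4, and the groups did not overlap (log2FC -3.24 ± 0.46, adjusted p = 0.00309). Mertk-/-V2 RPE had 98.3, 62.8 and 154 and Mertk-/-V3 RPE had 139, 71.1 and 125, all above the Mertk-/-V1 range. AA467197 was the member with the largest fall in both tissues, and it passed in RPE against WT in all 12 fits that left out 1 library (adjusted p from 0.000951 to 0.0109). Against the mean of the other knockouts in RPE (log2FC -2.38 ± 0.46, adjusted p = 0.0455) it passed in 3 of 12 such fits, those without Mertk-/-V1 replicate 1, Mertk-/-V1 replicate 2 or Mertk-/-V3 replicate 1. Within RPE replicates 1 to 3 the means were 257 in WT and 40.5 in Mertk-/-V1, and within replicates 4 to 6 they were 145 and 9.82. In a fit of either set alone the adjusted p was above 0.05, up to 0.145. Its relative Ndufa4 did not pass in either tissue (-0.18 in BMDMs, adjusted p = 0.0888).

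Spata5l1 (chr2:122630625-122632930, plus strand) bears the name of an ATPase of the AAA family used in ribosome assembly, and lies between Gatm and AA467197. The locus counted here is annotated as a processed transcript, the only member that is not protein-coding. Its count fell in Mertk-/-V1 BMDMs, with 210.2, 182 and 216 against 326, 304 and 280.4 in WT (log2FC -0.58 ± 0.11, adjusted p = 0.00653). The Mertk-/-V2 libraries, at 233, 224 and 245, lay below WT as well, without passing (log2FC -0.37 ± 0.11, adjusted p = 0.0615), and Mertk-/-V1 did not pass against the mean of the other knockouts (log2FC -0.33 ± 0.09, adjusted p = 0.155). From Slc28a2 through Gm14085, Gatm and Spata5l1 to AA467197, 5 neighbouring members in 214.715 kb at chr2:122426477-122641191 all passed in Mertk-/-V1 BMDMs. The first 3 were higher and the last 2 lower, so neighbours differed in direction. In RPE, Spata5l1 did not pass (log2FC -0.12 ± 0.13, adjusted p = 0.888), and of the 3 of these genes above the filter, Gatm and AA467197 passed.

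**Figure D2:**
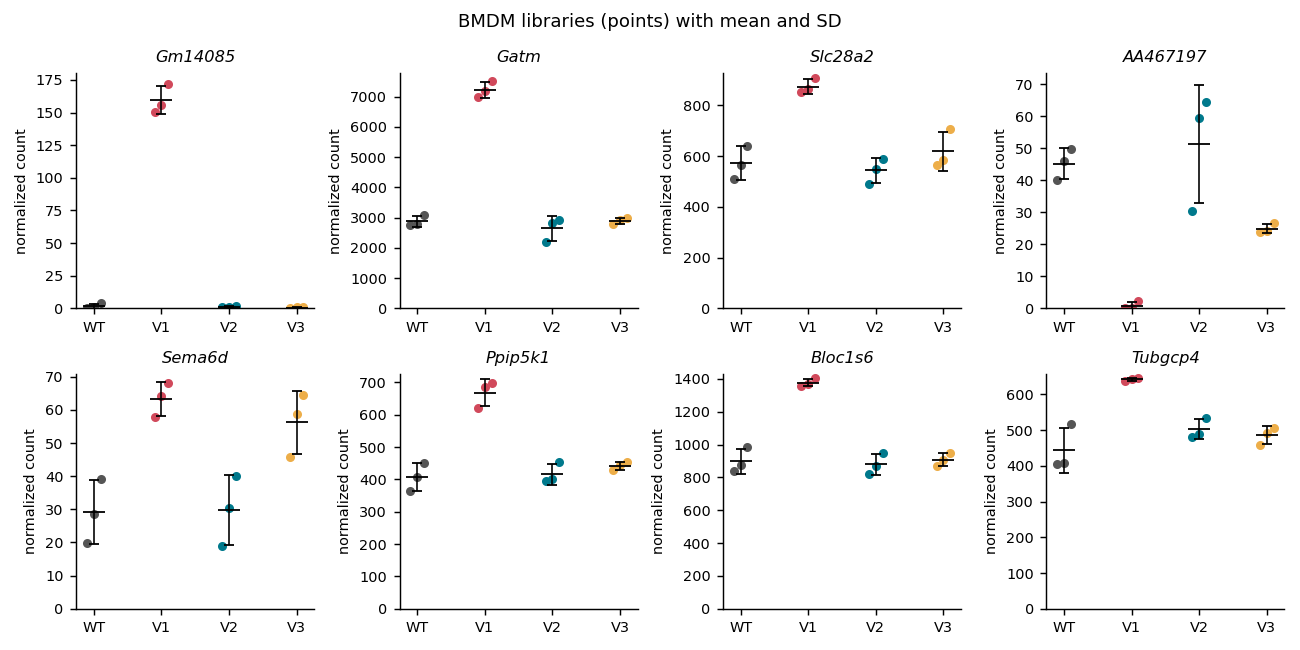
Normalized counts in BMDMs (y axis) are drawn for 8 members in each of the 4 genotypes (x axis), with a point per library, and the mean ± SD of 3 libraries. The Mertk-/-V1 points of Gm14085, Gatm and Slc28a2 sit above every other point, those of AA467197 sit at 0 to 2.35, and those of Sema6d sit beside the Mertk-/-V3 points.

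Ppip5k1 (chr2:121310561-121355396, minus strand), a kinase that makes inositol pyrophosphates, was higher in Mertk-/-V1 BMDMs, with 621, 699 and 686 against 365, 408 and 451 in WT (log2FC 0.71 ± 0.08, adjusted p = 0.000268). Mertk-/-V2 had 394, 453 and 401 and Mertk-/-V3 had 453, 429.6 and 445, and Mertk-/-V1 lay above both (0.64, adjusted p = 0.000276). In RPE its log2FC was 0.08 with an adjusted p of 0.92, and its exons share 272 bases with Map1a. Frmd5, a FERM-domain protein of cell junctions, and Shf, an adaptor protein with an SH2 domain, did not pass in RPE, where Frmd5 ranged widely, from 109 to 1701 over WT and Mertk-/-V1.

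Eif3j1 (chr2:122028546-122056598, plus strand) encodes subunit j of the translation initiation factor eIF3, and fell by a like amount in both tissues. BMDMs had 767, 756 and 799 in WT and 388, 395 and 435 in Mertk-/-V1 (log2FC -0.93 ± 0.08, adjusted p = 1.26e-05), with 728, 604 and 702 in Mertk-/-V2 and 604, 688 and 686 in Mertk-/-V3. WT RPE had a lowest of 823, a median of 984 and a highest of 1049, and Mertk-/-V1 RPE had a lowest of 465, a median of 529 and a highest of 591 (log2FC -0.86 ± 0.08, adjusted p = 3.87e-05). The Mertk-/-V1 libraries lay below all others in both tissues, and Eif3j1 passed against the other knockouts as well (-0.86 in RPE and -0.72 in BMDMs). Eif3j2, a gene outside the span whose transcript is 99.4% identical to that of Eif3j1 over 2379 bases, moved the other way, with log2FC of 2.84 in RPE (adjusted p = 2.36e-07) and 2.83 in BMDMs (adjusted p = 3.55e-06). The summed count of both genes was 1007 ± 92.3 (SD, n = 6) in WT RPE and 929 ± 68.4 (SD, n = 6) in Mertk-/-V1 RPE. In BMDMs it was 815 ± 21.6 (SD, n = 3) in WT, 697 ± 34.7 (SD, n = 3) in Mertk-/-V1, 722 ± 69.8 (SD, n = 3) in Mertk-/-V2 and 692 ± 45.0 (SD, n = 3) in Mertk-/-V3. Eif3j2 took 44.0% of that sum in Mertk-/-V1 RPE and 41.7% in Mertk-/-V1 BMDMs, against 4.40 to 6.15% in the other groups of both tissues. The summed RPE groups overlapped, and the summed Mertk-/-V1 level in BMDMs was close to that of the other knockouts. Whether reads were assigned to the copy in place of Eif3j1 or the copy itself was transcribed more cannot be told apart from these counts. Eif3j1 also shares 1107 exon bases with Spg11 on the opposite strand, and whether the counting used strand is not given in the sources used here.

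**Figure D3:**
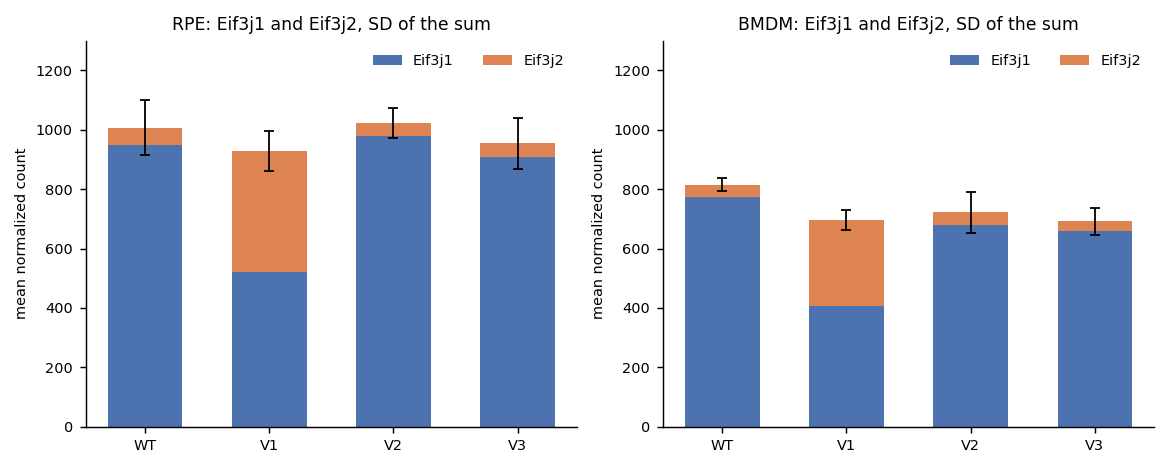
Mean normalized counts of Eif3j1 and Eif3j2 are stacked for each genotype (x axis) in RPE and BMDMs, with the SD of their sum as the error bar, over 6 libraries for WT and Mertk-/-V1 RPE and 3 otherwise. The Eif3j2 part is 44.0% and 41.7% of the Mertk-/-V1 bars and 4.40 to 6.15% of the others.

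Lcmt2, which acts in the wybutosine modification of phenylalanine tRNA, fell in Mertk-/-V1 RPE. The 6 WT libraries had a lowest of 318, a median of 343 and a highest of 381, and the 6 Mertk-/-V1 libraries had a lowest of 186, a median of 243 and a highest of 269 (log2FC -0.54 ± 0.09, adjusted p = 0.0104). Mertk-/-V2 RPE had 367, 370.0 and 368 and Mertk-/-V3 RPE had 334, 276 and 292, all above the Mertk-/-V1 range. It passed against WT in all 12 fits that left out 1 library, but against the mean of the other knockouts (log2FC -0.48 ± 0.09, adjusted p = 0.046) in only 2 of 12, those without Mertk-/-V1 replicate 6 or Mertk-/-V3 replicate 1 (adjusted p from 0.0455 to 0.142). In BMDMs Lcmt2 had 323, 291 and 288 in WT and 277, 286 and 300.3 in Mertk-/-V1, and did not pass (log2FC -0.06 ± 0.08, adjusted p = 0.681). Lcmt2 shares 226 exon bases with Adal on the opposite strand. Mfap1a, a splicing factor, did not pass in RPE (log2FC -0.24 ± 0.07, adjusted p = 0.28) or BMDMs (log2FC -0.09 ± 0.08, adjusted p = 0.51), while its copy Mfap1b, 99.3% identical over 2328 bases, was lower in both (-0.41, adjusted p = 0.032, and -0.77, adjusted p = 0.000829). Their sum was 1657 ± 63.8 (SD, n = 6) in WT RPE and 1346 ± 125 (SD, n = 6) in Mertk-/-V1 RPE, and 757 ± 55.8 (SD, n = 3) and 588 ± 47.8 (SD, n = 3) in BMDMs. No other member of the group for transcription, RNA and translation passed against WT in Mertk-/-V1, and the group gave 2 of 9 tested in RPE and 1 of 9 in BMDMs, all lower, where 0.101% of all genes in RPE and 3.15% in BMDMs were called lower. With 9 genes, the single BMDM call cannot be set apart from the share of all genes. Eif3j1 made that call and 1 of the 2 RPE calls, and its reads may have been exchanged with those of Eif3j2. The RPE count of this group is therefore not read as a result about these roles.

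Bloc1s6 (chr2:122738503-122749475, plus strand) encodes pallidin, a subunit of the BLOC-1 complex that sorts cargo to melanosomes and other lysosome-related organelles. In BMDMs it had 837, 878 and 985 in WT and 1372, 1359.7 and 1404 in Mertk-/-V1 (log2FC 0.62 ± 0.07, adjusted p = 0.000151). Mertk-/-V2 had 949.8, 869 and 819.8 and Mertk-/-V3 had 873, 951 and 904, within or near the WT range. In RPE the WT libraries had a lowest of 727, a median of 827 and a highest of 910.2, and the Mertk-/-V1 libraries had a lowest of 938, a median of 1040.0 and a highest of 1215. All 6 Mertk-/-V1 libraries lay above all 6 WT libraries, but the difference did not pass (log2FC 0.35 ± 0.09, adjusted p = 0.154). At a similar fold it did pass with the set of replicates as a term (adjusted p = 0.0358), with rod photoreceptor genes as a covariate (adjusted p = 0.00228) and by DESeq2 (adjusted p = 0.0216). Mertk-/-V2 RPE had 819, 789 and 877 and Mertk-/-V3 RPE had 587, 665 and 807. Against their mean it did pass (log2FC 0.47 ± 0.09, adjusted p = 0.0366), in 4 of 12 fits that left out 1 library, those without Mertk-/-V1 replicate 5, Mertk-/-V1 replicate 6, Mertk-/-V3 replicate 1 or Mertk-/-V3 replicate 3, with an adjusted p of 0.0145 to 0.134 over the 12.

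Pdia3, a protein disulfide isomerase that folds glycoproteins in the endoplasmic reticulum, was lower in more than one knockout. In BMDMs it had 18781, 19652 and 18665 in WT, 16241, 15695 and 16205 in Mertk-/-V1, 15839.9, 15426 and 16626 in Mertk-/-V2 and 16719.8, 17463 and 17185 in Mertk-/-V3. Every knockout library was below every WT library, and the difference passed for Mertk-/-V1 (log2FC -0.25 ± 0.04, adjusted p = 0.00546) and Mertk-/-V2 (log2FC -0.25 ± 0.04, adjusted p = 0.00616) but not for Mertk-/-V3 (log2FC -0.15 ± 0.04, adjusted p = 0.105). Mertk-/-V1 did not differ from the mean of the other knockouts past the test (log2FC -0.04 ± 0.04, adjusted p = 0.702). Spg11, a protein of lysosome reformation that is mutated in a hereditary spastic paraplegia, did not pass against WT in BMDMs (log2FC -0.13 ± 0.06, adjusted p = 0.156). It passed against the other knockouts (log2FC -0.26 ± 0.05, adjusted p = 0.0123), though not without Mertk-/-V1 replicate 1 or Mertk-/-V1 replicate 3, where the adjusted p reached 0.104. In RPE all 6 Mertk-/-V1 libraries of Spg11, with a lowest of 615, a median of 737 and a highest of 1002, lay below the WT libraries, with a lowest of 1016, a median of 1081 and a highest of 1283, and the adjusted p was 0.0609 (log2FC -0.56). Usp8, a deubiquitinase of endosomes, stood near 0 in every comparison, with 0.01 in RPE and 0.00 in BMDMs, and Sppl2a, an intramembrane protease, and Ap4e1, a subunit of the AP-4 adaptor, did not pass either.

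Tubgcp4, a subunit of the gamma-tubulin ring complex that nucleates microtubules, was higher in Mertk-/-V1 BMDMs, with 638, 642 and 645 against 406, 407 and 516 in WT (log2FC 0.54 ± 0.09, adjusted p = 0.00302). Mertk-/-V2 had 482, 490.1 and 534 and Mertk-/-V3 had 459, 493 and 507. The difference from their mean passed (log2FC 0.38 ± 0.08, adjusted p = 0.0249), but was lost without any 1 of the 3 Mertk-/-V1 libraries, Mertk-/-V2 replicate 2, Mertk-/-V3 replicate 1 or Mertk-/-V3 replicate 2 (adjusted p up to 0.141). Its transcript shares 2130 exon bases with Trp53bp1 on the opposite strand, the gene of a DNA repair factor that did not pass (log2FC -0.04 ± 0.07, adjusted p = 0.781). Wdr76, a WD-repeat protein that binds damaged DNA, had 556, 653 and 608 in WT BMDMs, 632, 654 and 639 in Mertk-/-V1, 503, 466 and 528 in Mertk-/-V2 and 493, 527 and 549 in Mertk-/-V3. Mertk-/-V1 overlapped WT (log2FC 0.09 ± 0.07, adjusted p = 0.516), and the others had lower values: Mertk-/-V2 passed against WT (log2FC -0.28 ± 0.07, adjusted p = 0.0461), and Mertk-/-V1 passed against their mean (log2FC 0.33 ± 0.06, adjusted p = 0.0166). The first of these was kept only without Mertk-/-V2 replicate 3 (adjusted p from 0.0225 to 0.186), and the second was lost without any 1 of the 3 Mertk-/-V1 libraries (up to 0.11). In RPE, Wdr76 lay above WT in all 6 Mertk-/-V1 libraries without passing (log2FC 0.50 ± 0.13, adjusted p = 0.18), and passed with the set of replicates as a term (adjusted p = 0.0358), with rod photoreceptor genes as a covariate (adjusted p = 0.0323) and by DESeq2 (adjusted p = 0.0255). Cep152, a protein of centriole duplication, was above WT in all 3 Mertk-/-V1 libraries of BMDMs and missed the threshold (log2FC 0.29 ± 0.08, adjusted p = 0.0526).

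Trpm7, a channel for magnesium and other divalent ions fused to a kinase, had 2203, 2121 and 2143 in Mertk-/-V1 BMDMs and 1462, 1592 and 1844 in WT (log2FC 0.41 ± 0.10, adjusted p = 0.0222). Mertk-/-V2, at 2217, 1723 and 1934, overlapped Mertk-/-V1. Atp8b4, a P4-type ATPase of the lipid flippase family, had 3905, 4175 and 4002 in Mertk-/-V1 and 3108, 3488 and 3403 in WT (log2FC 0.27 ± 0.07, adjusted p = 0.0285), with 3652, 3135 and 3699 in Mertk-/-V2 and 2712, 2923 and 3089 in Mertk-/-V3. Against the mean of those it passed as well (log2FC 0.34 ± 0.06, adjusted p = 0.00897), though not without Mertk-/-V1 replicate 2 or Mertk-/-V1 replicate 3. Both calls against WT were kept only without WT replicate 3 among the 6 fits that left out 1 library, with an adjusted p of 0.00835 to 0.118 for Trpm7 and 0.0369 to 0.142 for Atp8b4. In RPE Trpm7 did not pass (log2FC -0.20 ± 0.11, adjusted p = 0.787) and Atp8b4 was under the filter. Slc30a4, a zinc exporter, did not pass in RPE (-0.01) or BMDMs (0.30, adjusted p = 0.206).

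Sema6d (chr2:124089969-124667770, plus strand), a transmembrane semaphorin that signals through plexins, was low in BMDMs, with 19.7, 28.5 and 39.1 in WT and 68.1, 58.0 and 64.1 in Mertk-/-V1 (log2FC 1.15 ± 0.28, adjusted p = 0.0293). Mertk-/-V2 had 40.0, 30.3 and 19.0, over the WT range, and Mertk-/-V3 had 64.4, 58.6 and 45.8, which overlapped Mertk-/-V1 (log2FC 0.97 ± 0.28, adjusted p = 0.117, for Mertk-/-V3 against WT). Mertk-/-V1 did not pass against the mean of the other knockouts (log2FC 0.65 ± 0.25, adjusted p = 0.323). The call against WT was kept only without WT replicate 3 (adjusted p from 0.0145 to 0.14). In RPE the log2 fold change of Sema6d was -0.20 (adjusted p = 0.851). Fbn1, the fibrillin of elastic fibres, and Fgf7, a growth factor for epithelia, were tested in RPE only and did not pass (-0.54, adjusted p = 0.644, and 0.75, adjusted p = 0.315).

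**Figure D4:**
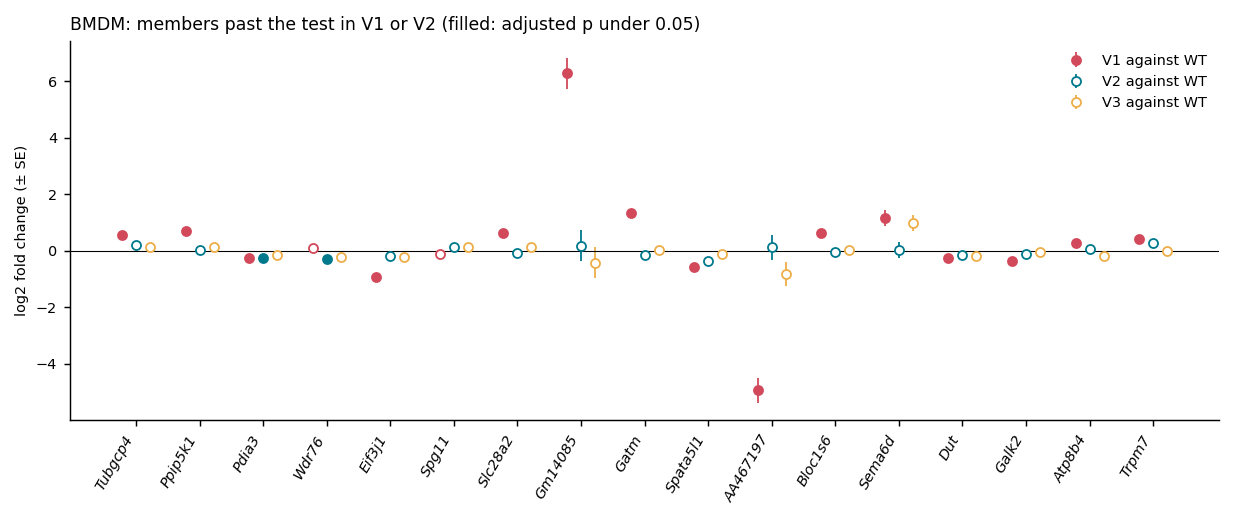
The log2 fold change against WT in BMDMs (y axis, ± SE, log2(value + 1) scale) is drawn for Mertk-/-V1, Mertk-/-V2 and Mertk-/-V3. The 17 members (x axis) passed in Mertk-/-V1 against WT, in Mertk-/-V2 against WT or in Mertk-/-V1 against the mean of the others. Filled points mark those that passed against WT. The 3 sets of points share their WT libraries, and the sizes for Gm14085 and AA467197 depend on the pseudocount.

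The DUOX system makes hydrogen peroxide at the surface of epithelia: Duox1 and Duox2 are the oxidases, and Duoxa1 and Duoxa2 bring them to the membrane. In BMDMs all 4 were under the filter. In RPE, Duox2 had a lowest of 15.7, a median of 35.4 and a highest of 45.8 in Mertk-/-V1 and a lowest of 40.6, a median of 103 and a highest of 139.9 in WT (log2FC -1.47 ± 0.36, adjusted p = 0.115). Mertk-/-V2, at 33.0, 27.2 and 37.0, lay below WT too without passing (log2FC -1.34 ± 0.44, adjusted p = 0.713). Duoxa1 had a lowest of 138, a median of 422 and a highest of 546 in Mertk-/-V1 and a lowest of 51.1, a median of 201 and a highest of 464 in WT (log2FC 1.06 ± 0.56, adjusted p = 0.764), and Duox1 did not pass (log2FC -0.08 ± 0.63, adjusted p = 0.985). Markers of stratified epithelium, a tissue that is not part of the RPE, were present in these libraries: the summed level of Krt5, Krt13, Krt14, Krt15 and Trp63, a list chosen after the data were seen, ran from 60112 to 324069 in WT, 63081 to 244169 in Mertk-/-V1, 60208 to 158647 in Mertk-/-V2 and 41142 to 128793 in Mertk-/-V3. None of these 5 markers was at 0 in any RPE group, and none passed between Mertk-/-V1 and WT. The ratio of Duoxa1 to Duox1 within a library, also looked at after seeing the data, was 0.763 to 1.33 in the 6 Mertk-/-V1 libraries, 0.366 to 0.548 in WT, 0.423 to 0.669 in Mertk-/-V2 and 0.372 to 0.600 in Mertk-/-V3. It is a description without a test, and Duoxa1 shares 682 exon bases with Duoxa2 on the opposite strand. Tgm5, a transglutaminase that cross-links the cell envelope of keratinocytes, had a lowest of 101, a median of 272 and a highest of 357 in Mertk-/-V1 RPE and a lowest of 162, a median of 495 and a highest of 896 in WT (log2FC -0.96 ± 0.45, adjusted p = 0.73). Of other NADPH oxidases, Cybb, the oxidase of phagocytes, did not pass in RPE (0.51, adjusted p = 0.419) or BMDMs (0.22, adjusted p = 0.0657).

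**Figure D5:**
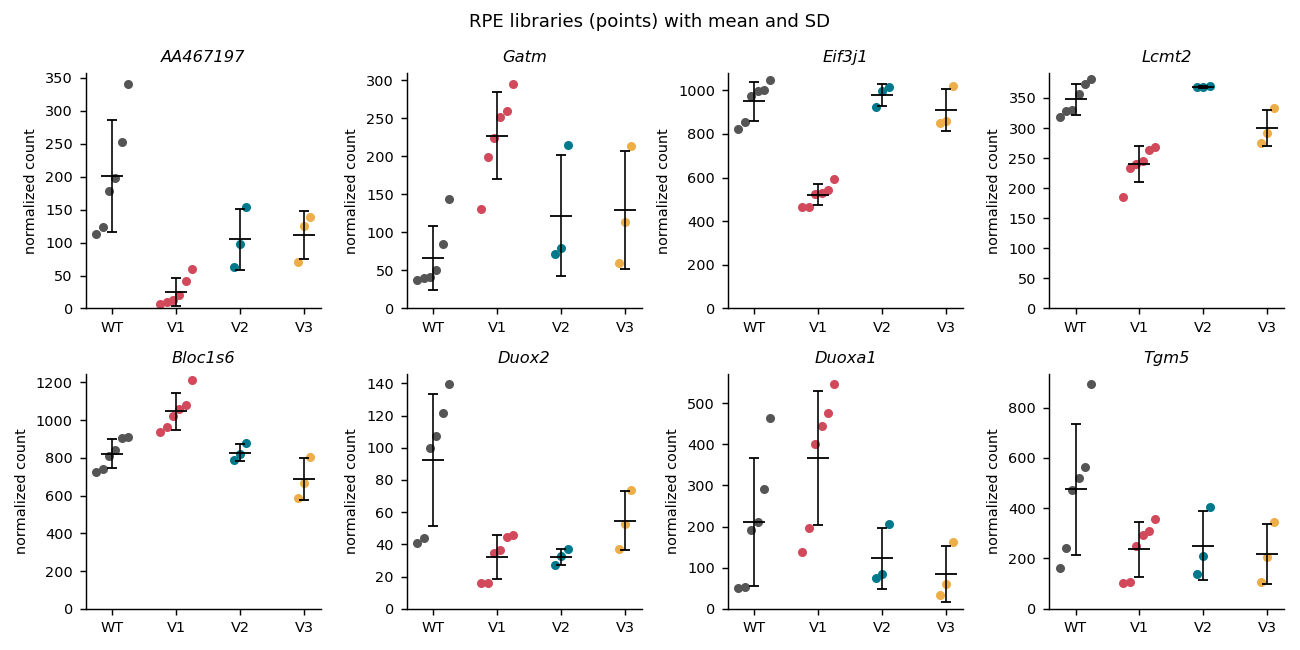
Normalized counts in RPE (y axis) are drawn for 8 members in each of the 4 genotypes (x axis), with a point per library and the mean ± SD of 6 (WT, Mertk-/-V1) or 3 libraries. The Mertk-/-V1 points of AA467197, Eif3j1 and Lcmt2 sit below every other point, and those of Duoxa1 and Tgm5 spread across the other genotypes.

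The number of RPE calls between Mertk-/-V1 and WT depended on how the spread between libraries was modelled. WT and Mertk-/-V1 libraries with the same replicate number deviated together, as did some with unlike numbers, and a pairing by number is not established. With the replicate number as a block 8 members passed (background 0.696%): Gatm, Eif3j1, AA467197 and Lcmt2, plus Duox2 (-1.47, adjusted p = 0.00162), Spg11 (-0.56, adjusted p = 0.0422), Fgf7 (0.75, adjusted p = 0.0425) and Galk2 (-0.44, adjusted p = 0.0485). With the block in a fit of these genotypes alone, 6 passed (background 0.536%): Gatm, AA467197, Eif3j1, Duox2, Galk2 and Sord (-0.58, adjusted p = 0.0272). With the stratified epithelium markers as a covariate, added after the data were seen, 8 passed (background 0.685%): the first 4, Duox2 (-1.47, adjusted p = 0.00211), Spg11 (-0.56, adjusted p = 0.0414), Duoxa1 (1.06, adjusted p = 0.00299) and Tgm5 (-0.96, adjusted p = 0.000134). With the set of replicates (1 to 3 or 4 to 6) as a term, 10 passed (background 0.701%): the first 4, Duox2, Spg11, Galk2, Sord, Bloc1s6 (0.35, adjusted p = 0.0358) and Wdr76 (0.50, adjusted p = 0.0358). A score of rod photoreceptor genes as a covariate gave 11 (background 1.64%), those 10 and Fgf7, and DESeq2 gave 8 (background 1.07%), the first 4, Duox2, Spg11, Bloc1s6 and Wdr76. Eif3j1, AA467197 and Gatm passed in all of these fits. Other fits gave fewer calls: edgeR gave 3 (background 0.398%), without Gatm, and a fit of these genotypes alone without the block gave 3 (background 0.297%), without Lcmt2. The macrophage markers had a median log2 fold change of 0.52 in Mertk-/-V1 RPE, with 1 of 8 past the test (Fcgr1, 1.13), and their part in these results was not tested.

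The tissues were normalized separately, and 33 members were tested in both. The Mertk-/-V1 effect had the same direction in RPE and BMDMs for 20 of these 33, and for 6586 of the 12513 genes tested in both (52.6%). All 4 members that passed in RPE had the same direction in BMDMs, as did, in RPE, 9 of the 12 members that passed in BMDMs and were tested in RPE. Gatm, Eif3j1 and AA467197 passed in both tissues and stand in both of these counts. The 52.6% covers all genes tested, whether they passed or not. The matching share among all genes that passed in a tissue was not computed, so these counts are a description only. In a test of the difference itself across all genes, Sema6d was the member that passed of 33 (RPE minus BMDM log2FC -1.34 ± 0.30, adjusted p = 0.0442, background 0.376%). That call was kept in 3 of 18 fits with 1 library dropped, namely without RPE Mertk-/-V1 replicate 2, RPE Mertk-/-V1 replicate 3 or BMDM WT replicate 3 (adjusted p from 0.0192 to 0.225). In this fit, genes that passed in BMDMs and not in RPE, such as Ppip5k1 and Tubgcp4, are therefore not shown to differ between the tissues (difference -0.64, adjusted p = 0.192, and -0.48, adjusted p = 0.29). With 1 weight per tissue, 3 of 33 members passed (background 1.14%). Sema6d was among them, and which others passed is not given here.

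Of the members tested, 41 in RPE and 21 in BMDMs did not pass between Mertk-/-V1 and WT. Their log2 fold changes ran from -1.47 (Duox2) to 1.06 (Duoxa1) in RPE and from -0.13 (Spg11) to 0.32 (Ctdspl2, a phosphatase-like protein, adjusted p = 0.0726) in BMDMs. 10 of these 41 and 4 of these 21 had an unadjusted p under 0.05, as did 6.45% in RPE and 17.8% in BMDMs of all genes that did not pass, so the BMDM count was near that of all genes. Among those not named so far are Zscan29, a zinc finger protein, Gabpb1, a subunit of the transcription factor GABP, Cops2, of the COP9 signalosome, Secisbp2l, a relative of a selenoprotein translation factor, Eid1, an inhibitor of differentiation, Myef2, a nucleic acid binding repressor, Serf2, a small protein linked to amyloid aggregation, and Slc12a1, the sodium, potassium and chloride cotransporter of the kidney, and none of them passed in any comparison. Under the filter were 8 members in RPE (Atp8b4, Duoxa2, Ell3, Gm14085, Patl2, Slc28a2, Strc and Trim69) and 17 in BMDMs (Ckmt1, Duox1, Duox2, Duoxa1, Duoxa2, Ell3, Fbn1, Fgf7, Frmd5, Hdc, Hypk, Map1a, Patl2, Slc12a1, Strc, Tgm5 and Trim69). 5 of them were under it in both tissues, and 4 had 0 reads in every BMDM library. Ell3 and Hypk share exons with Serinc4 or Serf2, Eid1 with Shc4 and Fbn1 with Gm9913, so values of these members are uncertain.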

How the data were processed

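RNA of 30 libraries (RPE at P25 and BMDMs of 4 genotypes) was sequenced as 150 bp read pairs. Trimming was done by the authors with btrim, alignment with STAR against GRCm38, and normalization with DESeq2. The read counter, the annotation release and the use of strand are not given in the sources used here. The authors deposited 1 table of signal per tissue, in which the count of each of 55573 genes is divided by one size factor per library, with 0 columns of no sample. Dividing by the value of 1 read recovered whole reads for 100% of the values in every library (tolerance 0.001), and these recovered counts of the deposited tables were used for edgeR, DESeq2 and exact intervals. Reads of a 129P2 allele were mapped to a B6 reference, and the loss of reads at variants was not tested. The ratio of counts between libraries sets the precision: 1 to 3 reads are given with their exact interval, a count of 0 allows up to 3 reads, and both cover counting error only.

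Gene positions came from GENCODE mouse release 21 (55394 of 55573 identifiers matched), sequences from RefSeq tables of GRCm38.p6, and near-identical copies from blastn 2.17.0 (at least 90% identity over 300 bases). Samples were grouped by the labels. Each tissue was fitted in limma 3.58.1 (lmFit, eBayes with a trend, R 4.3.3) on log2(value + 1), with all 4 genotypes in 1 model, genes with a mean of at least 10, and Benjamini-Hochberg adjustment over 18832 genes in RPE and 13420 in BMDMs. The tissue difference was an interaction term over 12513 genes of all 30 libraries. Every member past the test in any comparison was named, and other genes only as label checks, near-identical copies, markers or genes of the same pathways. The members, gene lists and tests were chosen with earlier results of these data known.

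RPE libraries of WT and Mertk-/-V1 with the same replicate number deviated together from their group means, with a correlation of 0.119 to 0.724 in 6 of 6 pairs. The blocked values therefore stand beside that comparison. Over the 30 pairs with unlike numbers the correlation ran from -0.711 to 0.744, so high values were not confined to like numbers. The labels give the numbers alone, and a pairing by number is not established. The replicates of a group were not copies of each other: over genes with at least 20 reads, their counts differed by a chi-square per gene of at least 3.37. Tested on simulated data, in which 200 genes carried a change of 2 (log2), limma found 87.5% of them for RPE Mertk-/-V1 against WT and 95.5% for BMDMs. edgeR 4.0.16, DESeq2 1.42.0 and the other alternatives are described in the closing section. Python 3.11.15 was used for annotation and matplotlib 3.10.9 for the figures.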

Additional observations from a re-analysis of the deposited data

Results flagged for a closer look

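In RPE, 4 of 90 groups of 6 libraries (a member in WT or Mertk-/-V1) held a library far from the others, where chance gives about 1 in 20 groups, or 4.5. Map1a, which encodes a microtubule-associated protein, stood at 6817 normalized counts in Mertk-/-V1 replicate 5, far above the other libraries of its group. Hypk, a chaperone partner of N-terminal acetylation, stood at 100.1 in Mertk-/-V1 replicate 6, high in its group. Spg11 stood at 1283 in WT replicate 1, high in its group. Dut stood at 442 in Mertk-/-V1 replicate 4, low in its group. None of these 4 passed between Mertk-/-V1 and WT in RPE by limma without a block or covariate.

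The Mertk-/-V1 effect on Sema6d passed a test of its difference between the tissues by an interaction term in limma, with a log2 fold change in RPE minus that in BMDMs of -1.34 (adjusted p = 0.0442), in tables that were normalized separately. The call was kept in only 3 of 18 fits without 1 library. It was lost with a pseudocount of 5, without the filter and with the replicate block.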

How the results depend on the processing

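The results followed here are those of members that passed in the main fit, and their direction was kept under every alternative tried. Of 371 values under alternatives, 310 kept their side of the threshold, 61 did not and 0 turned. Of 324 values in fits without 1 library, 234 kept it, 90 did not and 0 turned. The fold threshold leaves the log2 fold change as it was, so it could not turn a direction. The same holds for the block and set terms in RPE Mertk-/-V1 against WT. Members that did not pass in the main fit were not followed in this way. The counts of members that passed moved as follows, and the cause was not tested. RPE Mertk-/-V1 against WT (4) became 2 with the fold threshold, 8 with array quality weights, 8 with DESeq2, 8 with the replicate block, 11 with rod genes as a covariate, 10 with the set of replicates as a term, 2 in replicates 1 to 3 and 0 in replicates 4 to 6, and, in a fit chosen after seeing the data, 8 with stratified epithelium genes as a covariate. The share of all genes called moved too, from 0.388% to 0.149%, 0.802%, 1.07%, 0.696%, 1.64%, 0.701%, 0.123%, 0.00526% and 0.685% in that order. RPE Mertk-/-V2 (0) became 1 with array weights (4.57% of all genes called), 2 with the block (3.75%), 1 with rod genes (0.191%) and 1 in replicates 1 to 3 (0.134%). RPE Mertk-/-V3 (0) became 31 with array weights and 16 with the block, in fits that called 66.9% and 29.8% of all genes. RPE Mertk-/-V1 against the mean of the others (4, with 0.207% of all genes called) became 1 with the fold threshold (0.0956%), 2 without the filter (0.134%) and 1 in a fit of only these groups (0.0903%). It became 18 with array weights (28.9%), 2 with edgeR (0.207%), 12 with the block (12.4%) and 10 with rod genes (0.887%). The array weights in RPE did not converge and ran from 0.159 to 41.6, the highest for Mertk-/-V3 replicate 2. In BMDMs, Mertk-/-V1 against WT (15, with 7.07% of all genes called) became 3 with the fold threshold (0.425%). Mertk-/-V2 (2, with 4.61% of all genes called) became 0 with the fold threshold (0.253%), 1 without the filter (1.28%) and 0 in a fit of only these groups (0.514%). It became 1 with quantile normalization (4.25%) and 1 with the block (2.27%). Mertk-/-V3 (0) became 1 in a fit of only these groups (4.18% of all genes), 6 with array weights (12.6%) and 1 with DESeq2 (3.38%). Mertk-/-V1 against the mean of the others (12, with 0.991% of all genes called) became 3 with the fold threshold (0.194%). The tissue difference (1, with 0.376% of all genes called) became 0 with a pseudocount of 5 (0.312%) and 3 with 1 weight per tissue (1.14%). Without the filter and with the replicate block it stayed at 1 (0.121% and 0.591% of all genes), but that member was not Sema6d (adjusted p = 0.0727 and 0.0574 there).

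Leaving out 1 library at a time gave 3 to 5 members for RPE Mertk-/-V1 against WT, 0 to 0 for RPE Mertk-/-V2 and Mertk-/-V3, 1 to 6 for RPE Mertk-/-V1 against the others, 11 to 15, 1 to 3, 0 to 0 and 8 to 13 for the same comparisons in BMDMs, and 0 to 1 for the tissue difference. The shares of all genes called in those fits are not given here, so these counts describe the members alone. In every comparison, RPE Mertk-/-V1 against WT included, the labels of the samples share only a replicate number, so the block is not an established paired analysis. Quantile normalization moved the median of all genes by under 0.1 in every comparison.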
